A study of Homo sapiens with 8 samples.

Results

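The CDK inhibitor genes of human cells form 2 families, the CIP/KIP genes CDKN1A, CDKN1B and CDKN1C and the INK4 genes CDKN2A, CDKN2B, CDKN2C and CDKN2D. Their RNA was followed in BT-549, an established triple-negative breast cancer (TNBC) cell line, after treatment with EC359, vorinostat or both. The 7 genes were taken by their symbols from the 23228 genes listed in each library, as the members of these families, and all 7 were among the 13694 genes that passed a filter on low counts and were tested. CDKN1C passed the filter only through its counts in the groups with vorinostat, so no test of those groups against the others is given for it, and counts of genes called against vehicle or EC359 are given over the other 6.

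CIP/KIP proteins bind complexes of a cyclin and a CDK and block their activity, and p21 (CDKN1A), p27 (CDKN1B) and p57 (CDKN1C) act on the CDK2 complexes of the G1 to S transition. INK4 proteins bind CDK4 and CDK6 alone and keep the D-type cyclins from joining them, so that RB stays active and holds back the E2F factors. CDKN1A is a long-known target of HDAC inhibitors, and p16 (CDKN2A) and p15 (CDKN2B) are encoded side by side at a locus that is often lost in tumors.

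RNA-seq was performed on 8 libraries of BT-549 cells, 2 for each of 4 groups treated for 24 h. The groups were vehicle (DMSO), EC359 at 100 nM, vorinostat (SAHA) at 10 µM, and the combination of EC359 at 100 nM with vorinostat at 10 µM. EC359 is an inhibitor of the LIF receptor (LIFR), and vorinostat inhibits the zinc-dependent histone deacetylases (HDACs). The study asked whether blocking LIFR adds to the action of HDAC inhibitors in TNBC cells, and all groups are of this cell line alone. The labels number the libraries of a group 1 and 2 and do not say whether these came from separate cultures. The methods of the study state for in vitro assays in general that replicates were biological, without naming the sequencing. The p-values below measure the spread between these libraries, which may in part be technical.

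Each library held between 19069450 and 24759041 counts on genes. The marker genes of the cell line were checked by their summed CPM, the counts relative to a library size scaled by the TMM method. The 5 mesenchymal genes VIM, CDH2, ZEB1, SPARC and FN1 summed to between 7513 and 15042 CPM, with the 2 highest sums in the combination libraries. PGR had 0 or 1 count, ESR1 had 0 to 20 counts and ERBB2 between 235 and 2184 counts per library, and the 3 genes summed to between 13.0 and 102 CPM. The 5 epithelial genes summed to between 2.97 and 25.4 CPM, and the libraries of the combination stood apart in them, at 3.17 and 25.4 CPM. Of 6 genes of other cell types, CD68, a lysosomal protein gene used as a macrophage marker, gave nearly all of the sum, which was 40.5 to 48.1 CPM in vehicle, 120 to 206 CPM with EC359, 72.3 to 76.1 CPM with vorinostat and 223 to 268 CPM with the combination. The leukocyte gene PTPRC had 0 to 15 counts, CD3E, PECAM1 and CDH5 had 0 to 7, and ALB had 71 counts in EC359 1, 57 in vorinostat 2 and at most 11 elsewhere. The part of these genes in the results below was not tested. Between the libraries of a group, log2 differences had an SD over all genes of 0.56 for EC359, 0.45 for the combination, 0.35 for vehicle and 0.31 for vorinostat. In bulk RNA, fewer cells with a transcript and less of it per cell cannot be told apart.

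The DNA just before the transcription start is shown for the 2 genes of the families that rose most under vorinostat and had a promoter entry, CDKN1A and CDKN2B, and for the 2 that fell most, CDKN2C and CDKN1B. Each line holds the 150 bases before a RefSeq start on the gene's own strand (table of GRCh38.p14, placed on GRCh37 by an exact match). Capitals mark GGGCGG, the core of a GC box, and CCAAT, the core of a CCAAT box, on either strand. The windows are chr6:36646341-36646490 (plus strand) for CDKN1A, chr9:22009305-22009454 (minus strand) for CDKN2B, chr12:12870152-12870301 (plus strand) for CDKN1B and chr1:51435767-51435916 (plus strand) for CDKN2C, the last before the start of the reference transcript.
CDKN1A: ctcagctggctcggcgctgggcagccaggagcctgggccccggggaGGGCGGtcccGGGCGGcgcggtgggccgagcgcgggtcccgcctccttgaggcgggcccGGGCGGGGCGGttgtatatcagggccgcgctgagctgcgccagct
CDKN2B: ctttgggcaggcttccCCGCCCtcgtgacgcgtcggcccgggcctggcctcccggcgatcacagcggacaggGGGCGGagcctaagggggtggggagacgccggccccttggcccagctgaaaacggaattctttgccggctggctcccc
CDKN1B: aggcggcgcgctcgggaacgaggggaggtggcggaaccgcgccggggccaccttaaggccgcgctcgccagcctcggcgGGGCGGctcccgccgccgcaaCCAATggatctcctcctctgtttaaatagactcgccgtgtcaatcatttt
CDKN2C: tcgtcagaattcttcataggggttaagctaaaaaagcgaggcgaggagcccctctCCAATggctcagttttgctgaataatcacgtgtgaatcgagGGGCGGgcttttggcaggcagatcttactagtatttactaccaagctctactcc
Over the 250 bases before the start, CDKN1A held 4 copies of GGGCGG, of which the 2 nearest to the start overlap, CDKN2B and CDKN2D held 2 copies each, and CDKN1B held 1. The 2 listed starts of CDKN2A held 1 and 0 copies, and the 3 listed starts of CDKN2C held 0, 5 and 1. Of 35116 RefSeq promoters, 42.6% had at least 1 copy in such a window and 13.9% had 3 or more. CCAAT was found in the windows of CDKN1B (2 copies), CDKN2D (1 copy) and the third start of CDKN2C (1 copy), and in 32.0% of all promoters. GGCGGGAA, a form of the E2F site, was found before the second start of CDKN2C, and in 2.72% of all promoters. These matches describe letters and not binding.

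CDKN1A encodes p21, the CIP/KIP protein that many stress signals raise. The gene spans 36644237 to 36655114 on the plus strand of chromosome 6 in GRCh37, and its reference transcript has 3 exons. The vehicle libraries held 151 and 159 counts (7.13 and 7.43 CPM), the EC359 libraries 980 and 919 (40.4 and 46.6 CPM), the vorinostat libraries 5604 and 6840 (288 and 291 CPM) and the combination libraries 8970 and 9399 (459 and 480.0 CPM). The groups were ordered vehicle, EC359, vorinostat, combination, and no library overlapped with that of another group. Against vehicle, CDKN1A rose 5.97-fold with EC359 (log2 fold change 2.58, standard error 0.11, adjusted p = 2.0e-06 by the quasi-likelihood test of edgeR, adjusted after Benjamini and Hochberg over the 13694 genes). It rose 39.7-fold with vorinostat (5.31, standard error 0.12, adjusted p = 2.8e-08 in edgeR) and 64.5-fold with the combination (6.01, standard error 0.12, adjusted p = 1.1e-08 in edgeR). By log2 fold change the gene ranked 113 from the top of the 13694 genes with EC359 alone, 224 with vorinostat alone and 203 with both drugs. Adding EC359 to vorinostat gave a 1.62-fold higher level, under the 2-fold threshold of a call.

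CDKN1B encodes p27, which is regulated largely through protein turnover and through FOXO factors. It spans 12838432 to 12875303 on the plus strand of chromosome 12. The counts were 3315 and 3204 under vehicle (156 and 149.7 CPM), 1495 and 1275 under EC359 (61.6 and 64.7 CPM), 1126 and 1333 under vorinostat (57.9 and 56.7 CPM) and 814 and 777 under the combination (41.7 and 39.7 CPM). The order was the reverse of that of CDKN1A, with vehicle highest and the combination lowest, and the groups did not overlap. The EC359 and vorinostat libraries were neighbours in that order, and these groups were not tested against each other. CDKN1B fell to 0.413 of the vehicle level with EC359 (log2 -1.28, standard error 0.09, adjusted p = 2.8e-05 in edgeR), to 0.374 with vorinostat (-1.42, standard error 0.09, adjusted p = 1.9e-06 in edgeR) and to 0.266 with the combination (-1.91, standard error 0.09, adjusted p = 3.1e-07 in edgeR). GPR19 on the opposite strand overlaps the annotated span of CDKN1B and was at 0.128 to 1.03 CPM in the group means. APOLD1, which begins 3548 bases beyond CDKN1B on the same strand, fell with EC359 (log2 -1.21, adjusted p = 0.0013 in edgeR) and with the combination (-1.50, adjusted p = 4.5e-05 in edgeR), and CREBL2 on the other side was called in neither.

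CDKN1C encodes p57, an imprinted gene expressed from the maternal copy. It lies at 2904443 to 2907005 on the minus strand of chromosome 11. The counts were 2 and 14 under vehicle, 0 and 3 under EC359, 58 and 75 under vorinostat, and 256 and 224 under the combination, which is 11.4 and 13.1 CPM in the combination libraries. The libraries with vorinostat lay above all those without it, and the vehicle and EC359 libraries overlapped. On summed counts scaled to library size, the combination was 3.96 times vorinostat alone (95% exact binomial interval 3.26 to 4.84, 480 counts against 133). That interval covers counting error only. Ratios to the groups without vorinostat are given as a description, without an interval. The combination was 180 times EC359 alone (480 counts against 3), and vorinostat was 8.24 times vehicle (133 counts against 16). The fitted log2 values, given as a description, were 3.02 with vorinostat and 5.01 with the combination, and both rest on few vehicle counts. Without vehicle 1 they were 2.22 and 4.21, and without vehicle 2 they were 4.94 and 6.92. EC359 alone had 0.182 of the vehicle counts (0.0339 to 0.635, 3 counts against 16), an interval of counting error that leaves out 1. The spread of the vehicle libraries, of which vehicle 2 held 14 of the 16 counts, is not in that interval, and in edgeR the difference was not resolved (log2 -2.36, standard error 1.09, adjusted p = 0.18).

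**Figure D1:**
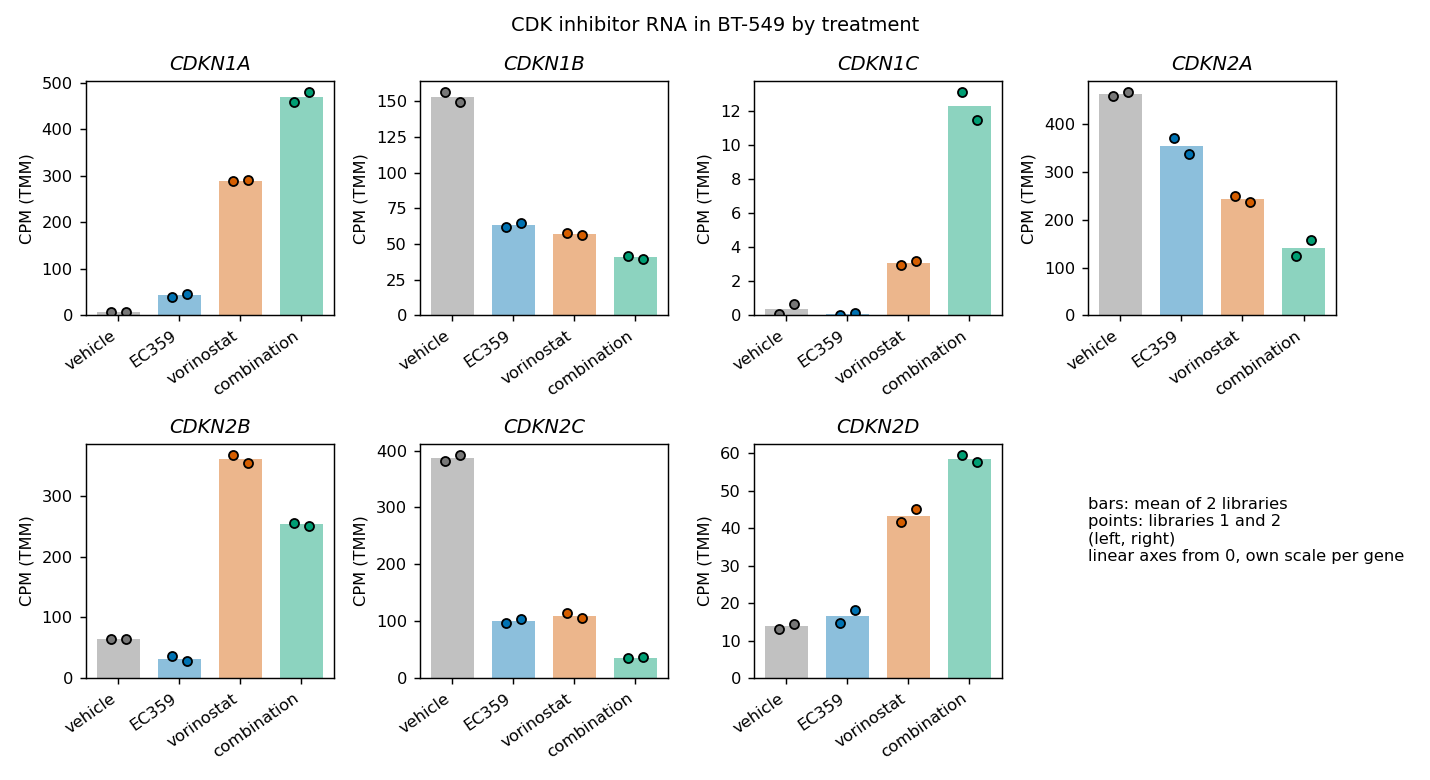
TMM-scaled CPM (counts relative to library size, linear axes from 0 with a scale for each gene) of the 7 CDK inhibitor genes by treatment. Bars are means of 2 libraries and points are the libraries. CDKN1A runs from 7.28 CPM in vehicle to 469.5 CPM in the combination, CDKN2C runs from 387 down to 36.0 CPM, and CDKN2B is highest under vorinostat alone at 361 CPM.

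CDKN2A encodes p16 and, in another reading frame with its own first exon, p14ARF, and counts per gene cannot separate them. It spans 21967751 to 21995300 on the minus strand of chromosome 9. The counts were 9711 and 9996 under vehicle (458 and 467 CPM), 8991 and 6665 under EC359 (371 and 338 CPM), 4859 and 5578 under vorinostat (249.9 and 237 CPM) and 2419 and 3101 under the combination (124 and 158 CPM). The levels stepped down from vehicle through EC359 and vorinostat to the combination without overlap, and the libraries of the combination were the farthest apart in proportion. CDKN2A fell to 0.305 of vehicle in the combination (log2 -1.71, standard error 0.12, adjusted p = 2.5e-06 in edgeR), and this passed both thresholds. With vorinostat alone the log2 fold change was -0.93 (standard error 0.12, adjusted p = 1.3e-04 in edgeR), short of the fold threshold, and with EC359 alone it was -0.38 (adjusted p = 0.056 in edgeR).

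CDKN2B encodes p15, a classic target of TGF-beta, and lies 7602 bases from CDKN2A, at 22002902 to 22009304 on the same strand. The counts were 1370 and 1377 under vehicle (64.7 and 64.3 CPM), 880 and 544 under EC359 (36.3 and 27.6 CPM), 7142 and 8328 under vorinostat (367 and 354 CPM) and 5000 and 4898 under the combination (256 and 250.1 CPM). Unlike CDKN1A, CDKN2B was lower with EC359 than without it in both settings, and vorinostat alone gave the highest level. It rose 5.59-fold with vorinostat (log2 2.48, standard error 0.13, adjusted p = 6.2e-07 in edgeR) and 3.92-fold with the combination (1.97, standard error 0.12, adjusted p = 1.2e-06 in edgeR). With EC359 alone it fell to 0.496 of vehicle (-1.01, standard error 0.12, adjusted p = 7.2e-04 in edgeR), a value at the edge of the fold threshold. This call was lost in 11 of 15 alternatives, mostly with a log2 fold change at or near -1. Leaving out EC359 2 gave -0.82 and leaving out EC359 1 gave -1.22. The call was also lost without vehicle 1 (-1.0), vehicle 2 (-1.01, adjusted p = 0.011 in edgeR), vorinostat 1 (-0.99), vorinostat 2 (-1.0), combination 1 (-0.99) or combination 2 (-0.99). Against vorinostat alone, CDKN2B in the combination was at 0.701 of its level (-0.51, adjusted p = 0.013 in edgeR), which missed both thresholds.

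The direction of CDKN2B under vorinostat was opposite to that of CDKN2A at the same locus, where p16 and p15 genes are transcribed the same way. CDKN2B-AS1 (ANRIL), a long noncoding RNA that runs across CDKN2B on the opposite strand and starts within CDKN2A, fell with vorinostat (log2 -1.07, standard error 0.24, adjusted p = 0.0037 in edgeR) and with the combination (-1.54, standard error 0.25, adjusted p = 5.0e-04 in edgeR). It held 25 to 88 counts per library. Whether counting used the strand is not given in the sources used here, so reads of CDKN2B-AS1 and of the genes it overlaps cannot be told apart. MTAP, the metabolic gene on the other side of CDKN2A, rose from 106 CPM in vehicle to 230.4 CPM in the combination (log2 1.12, adjusted p = 1.3e-05 in edgeR). The 3 coding genes of the locus thus had different orders of the 4 groups.

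CDKN2C encodes p18 and is itself transcribed in proliferating cells under E2F. It spans 51426417 to 51440306 on the plus strand of chromosome 1. The counts were 8086 and 8401 under vehicle (382 and 392 CPM), 2366 and 2050 under EC359 (97.6 and 104 CPM), 2219 and 2488 under vorinostat (114 and 106 CPM) and 694 and 714 under the combination (35.5 and 36.5 CPM). The libraries with a single drug lay between 97.6 and 114 CPM, were not tested against each other, and the combination libraries were lower than all others. It fell to 0.260 of vehicle with EC359 (log2 -1.94, standard error 0.09, adjusted p = 3.0e-06 in edgeR), to 0.284 with vorinostat (-1.82, standard error 0.09, adjusted p = 5.4e-07 in edgeR) and to 0.0930 with the combination (-3.43, standard error 0.10, adjusted p = 2.9e-08 in edgeR). Adding EC359 to vorinostat lowered it to 0.327 of its level (-1.61, standard error 0.09, adjusted p = 7.0e-06 in edgeR), the rank 128 from the bottom of the 13694 genes. FAF1, whose span ends 478 bases away, was between 84.7 and 103 CPM in the 4 group means and was called in no comparison with vehicle.

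CDKN2D encodes p19, an INK4 protein that varies through the cell cycle. It lies at 10677136 to 10679735 on the minus strand of chromosome 19. The counts were 277 and 312 under vehicle (13.1 and 14.6 CPM), 360 and 357 under EC359 (14.8 and 18.1 CPM), 809 and 1062 under vorinostat (41.6 and 45.1 CPM) and 1165 and 1128 under the combination (59.6 and 57.6 CPM). Vehicle and EC359 nearly touched, and the libraries with vorinostat were all higher. CDKN2D rose 3.14-fold with vorinostat (log2 1.65, standard error 0.13, adjusted p = 7.3e-06 in edgeR) and 4.24-fold with the combination (2.08, standard error 0.13, adjusted p = 1.4e-06 in edgeR). EC359 alone gave 0.25 (standard error 0.14, adjusted p = 0.24 in edgeR). KRI1, which ends 429 bases from it, was called in no comparison with vehicle. AP1M2, 3612 bases away on the other side, fell with EC359 (log2 -1.39, adjusted p = 0.009 in edgeR). It also fell with the combination (-1.65, adjusted p = 6.5e-04 in edgeR) and was not called with vorinostat (-0.96, adjusted p = 0.011 in edgeR).

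Read by comparison, a call needed an adjusted p below 0.01 together with a log2 fold change beyond 1 or -1. With EC359 alone, 4 of the 6 inhibitor genes other than CDKN1C were called, CDKN1A higher and CDKN1B, CDKN2B and CDKN2C lower. Of all genes tested, 3.67% were called (1.94% higher and 1.72% lower). The median log2 fold change of the 6 genes other than CDKN1C was -0.70, against -0.02 over all genes tested. With vorinostat alone, 5 of these 6 were called, CDKN1A, CDKN2B and CDKN2D higher and CDKN1B and CDKN2C lower, where 30.1% of all genes were called (16.8% higher and 13.3% lower). The medians were 0.36 for the 6 genes and 0.03 for all genes. With the combination all 6 were called, 3 higher and 3 lower, where 34.8% of all genes were called (19.5% higher and 15.3% lower), with medians of 0.13 and 0.07. In each family some genes rose and others fell. These 3 comparisons share the vehicle libraries.

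**Figure D2:**
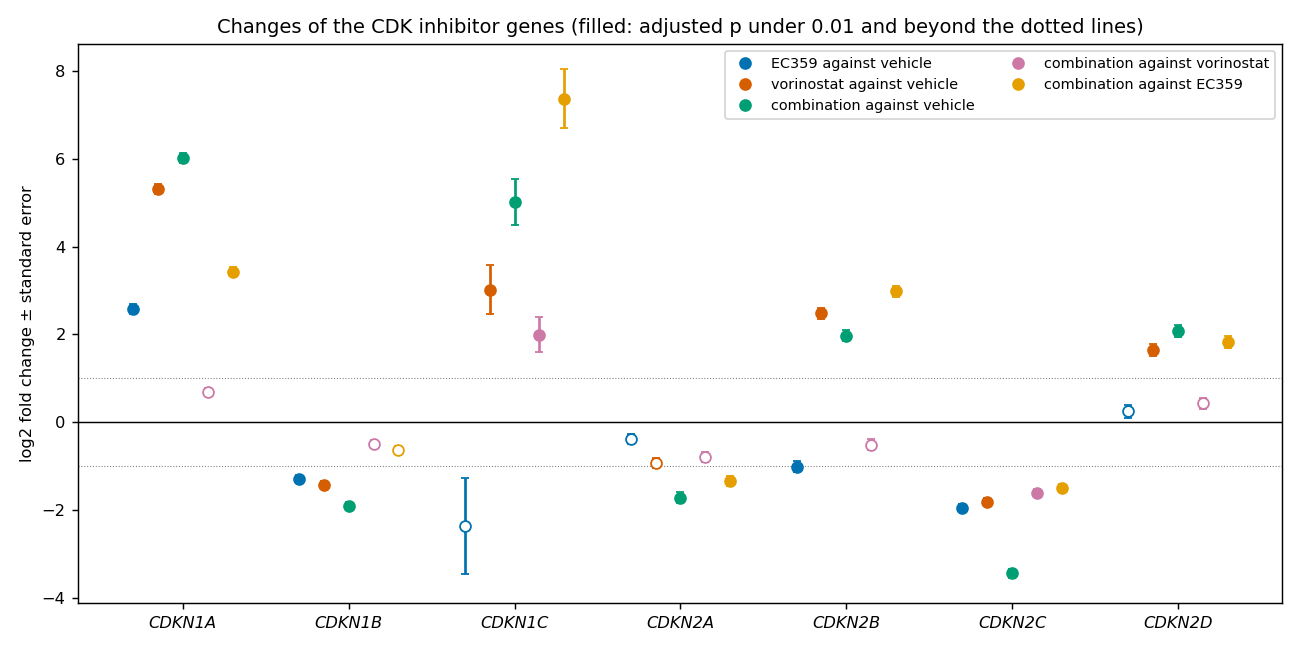
Log2 fold change (vertical axis) with its standard error (bars) for each CDK inhibitor gene in 5 comparisons, marked by color. Filled points passed both thresholds (adjusted p under 0.01, and beyond the dotted lines at 1 and -1). For CDKN1C, the filled points that set a group with vorinostat against one without it are a description and not a test. CDKN1A reaches 6.01 and CDKN2C -3.43 in the combination against vehicle, and CDKN1C, which passed the filter through the groups with vorinostat, has few counts elsewhere and the longest bars.

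The addition of EC359 to vorinostat is the comparison the study design turns on. Of the 7 genes, 2 were called, CDKN1C higher and CDKN2C lower, where 4.25% of all genes were called (3.37% higher and 0.876% lower, or 462 and 120 genes). With total counts in place of TMM scaling the split over all genes was 380 higher and 182 lower. The groups did not overlap for any of the 7 genes, and neither did they for 72.9% of all genes tested. The median log2 fold change of the 7 was -0.49, against -0.01 over all genes. By size, CDKN1C (log2 1.99, standard error 0.40, adjusted p = 0.0065 in edgeR) was followed by CDKN1A (0.70, standard error 0.09, adjusted p = 9.6e-04) and CDKN2D (0.43, standard error 0.13, adjusted p = 0.032) among the higher genes. Among the lower genes, CDKN2C was followed by CDKN2A (-0.79, standard error 0.12, adjusted p = 0.0018 in edgeR), CDKN2B and CDKN1B (-0.49, standard error 0.09, adjusted p = 0.0044). Without a fold threshold, 5 genes passed, CDKN1A and CDKN1C higher and CDKN1B, CDKN2A and CDKN2C lower. The call of CDKN1C was lost in 5 of 15 alternatives, among them without vorinostat 1 (log2 1.90, adjusted p = 0.079), vorinostat 2 (2.00, adjusted p = 0.071), combination 1 (1.85, adjusted p = 0.061) or combination 2 (2.04, adjusted p = 0.040 in edgeR). CDKN2A passed the fold threshold without combination 2 (-1.02, adjusted p = 0.0026 in edgeR).

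Adding vorinostat to EC359 changed 5 of the 6 genes other than CDKN1C, where 33.7% of all genes were called (19.8% higher and 13.9% lower). CDKN1A rose 10.8-fold over EC359 alone (log2 3.43, standard error 0.10, adjusted p = 5.8e-08 in edgeR), CDKN2B 7.91-fold (2.98, adjusted p = 2.4e-07 in edgeR) and CDKN2D 3.56-fold (1.83, adjusted p = 3.2e-06 in edgeR). CDKN1C rose from 3 counts in both EC359 libraries together to 480 in the combination. The fitted log2 value of CDKN1C, 7.36, was 6.26 without EC359 1 and 11.02 without EC359 2, and depends on the handling of the 0 count. CDKN2C fell by 1.49 and CDKN2A fell by 1.33 on the log2 scale, and CDKN1B (-0.63, standard error 0.09, adjusted p = 2.2e-04 in edgeR) did not reach the fold threshold.

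Whether EC359 acted differently in the presence of vorinostat was tested by an interaction, the log2 fold change of EC359 on top of vorinostat minus that of EC359 on vehicle, called at an adjusted p under 0.01. It was called for 2 of the 6 genes other than CDKN1C, where 2.10% of all genes were called (1.62% above 0 and 0.482% below 0). For CDKN1A it was -1.88 (standard error 0.14, adjusted p = 1.8e-04 in edgeR), with EC359 raising the gene 5.98-fold without vorinostat and 1.62-fold with it in group means. For CDKN1B it was 0.78 (standard error 0.13, adjusted p = 0.0087 in edgeR), with EC359 bringing the gene to 0.413 of its level without vorinostat and 0.710 with it. The call of CDKN1B was lost in 10 of 14 alternatives with values of 0.69 to 0.81. It was lost without vehicle 1 (0.74, adjusted p = 0.071), vehicle 2 (0.81, adjusted p = 0.050), vorinostat 1 (0.74, adjusted p = 0.098), vorinostat 2 (0.71, adjusted p = 0.11), combination 1 (0.69, adjusted p = 0.060) or combination 2 (0.76, adjusted p = 0.046 in edgeR).

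Of the 4 INK4 genes, 0 had a called interaction in edgeR and 0 with DESeq2, and 3 had an unadjusted p under 0.05 in edgeR. CDKN2C gave 0.33 (standard error 0.12, adjusted p = 0.16 in edgeR), so that the fall with EC359 was to 0.260 without vorinostat and to 0.327 with it. CDKN2D gave 0.18 (standard error 0.18, adjusted p = 0.63), CDKN2A -0.40 (standard error 0.17, adjusted p = 0.20) and CDKN2B 0.50 (standard error 0.17, adjusted p = 0.13 in edgeR). CDKN2B passed without EC359 1 (0.71, adjusted p = 7.6e-04 in edgeR). CDKN1C had a fitted value of 4.34, on 3 counts in the EC359 group. It is given as a description, because the interaction sets the groups with vorinostat against the others. The value was 4.39 with DESeq2, 8.01 without EC359 2 and 2.41 without vehicle 2.

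**Figure D3:**
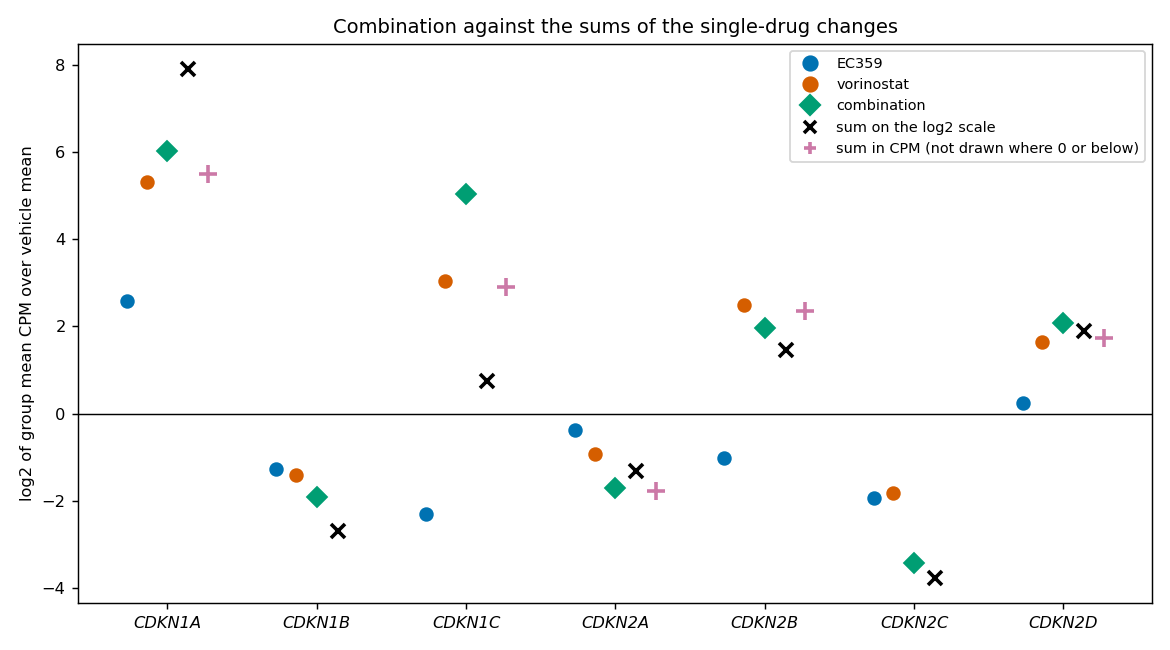
Log2 of the group mean CPM over the vehicle mean for EC359, vorinostat and the combination (circles and diamonds), beside sums of the changes made by each drug, taken in log2 (crosses) and in CPM (plus signs, not drawn where the sum is 0 or below). The combination lies below the log2 sum and above the CPM sum for CDKN1A, and close to the log2 sum for CDKN2C and CDKN2D.

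The interaction is defined on the log2 scale, and the same group means were also compared with sums on the linear scale, without a test. For CDKN1A the combination mean of 469.5 CPM (SD 14.8, n = 2) was 1.44 times the linear sum of the single-drug changes, 326 CPM, and 0.271 of the level at which the folds multiply, 1731 CPM. The excess over the linear sum was 144 CPM with TMM scaling and 119 CPM with total counts. CDKN2D, at 58.6 CPM (SD 1.42), lay above both its linear sum of 46.0 CPM and its multiplied level of 51.7 CPM. CDKN2B, at 253 CPM (SD 4.06), lay between its multiplied level of 179 CPM and its linear sum of 328 CPM. CDKN2C at 36.0 CPM (SD 0.670) and CDKN1B at 40.7 CPM (SD 1.40) lay above their multiplied levels of 28.6 and 23.6 CPM, and their linear sums would fall below 0. CDKN2A, at 141 CPM (SD 24.4), was within 1 SD of its linear sum of 135 CPM and below its multiplied level of 187 CPM.

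To compare levels between the genes, counts were divided by the length of the reference transcript (RPKM, which is CPM per kilobase). In vehicle, CDKN2A at 473 RPKM (SD 6.15, n = 2) and CDKN2C at 389 RPKM (SD 7.61) made up 49.5% and 40.7% of the summed RPKM of the 7 genes. CDKN1B followed at 63.5 RPKM (6.65%), and CDKN2B (16.7 RPKM), CDKN2D (9.70 RPKM), CDKN1A (3.44 RPKM) and CDKN1C (0.211 RPKM) were lower. Under EC359, CDKN2A made up 68.3% and CDKN2C 19.1%, and CDKN1A was at 20.6 RPKM. Under vorinostat, CDKN2A made up 38.6%, CDKN1A 21.2%, CDKN2C 17.1% and CDKN2B 14.5%. Under the combination CDKN1A led at 222 RPKM (SD 6.998) and 41.7%, ahead of CDKN2A at 144 RPKM (SD 24.996) and 26.99%. CDKN2B (65.7 RPKM), CDKN2D (41.1 RPKM), CDKN2C (36.2 RPKM), CDKN1B (16.9 RPKM) and CDKN1C (6.92 RPKM) followed.

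The summed level of the 7 genes was highest in vehicle, at 956 RPKM (SD 12.8), and was 530.3 RPKM (SD 16.0) under EC359, 646 RPKM (SD 15.3) under vorinostat and 533 RPKM (SD 29.4) under the combination. The CIP/KIP genes made up 7.03% of it in vehicle, 8.84% with EC359 alone, 25.1% with vorinostat alone and 46.1% with both drugs. The sum of the INK4 genes went from 889 RPKM in vehicle to 484 RPKM under either drug alone and 287 RPKM under the combination, and that of the CIP/KIP genes from 67.1 RPKM to 46.8, 162 and 246 RPKM. These shares depend on the transcript chosen. With the longest coding transcript, a choice made after seeing the data, CDKN2C is counted over 2904 rather than 995 bases, and CDKN2A and CDKN2C made up 68.9% and 20.9% in vehicle. The leading gene of each group was the same with both lengths.

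**Figure D4:**
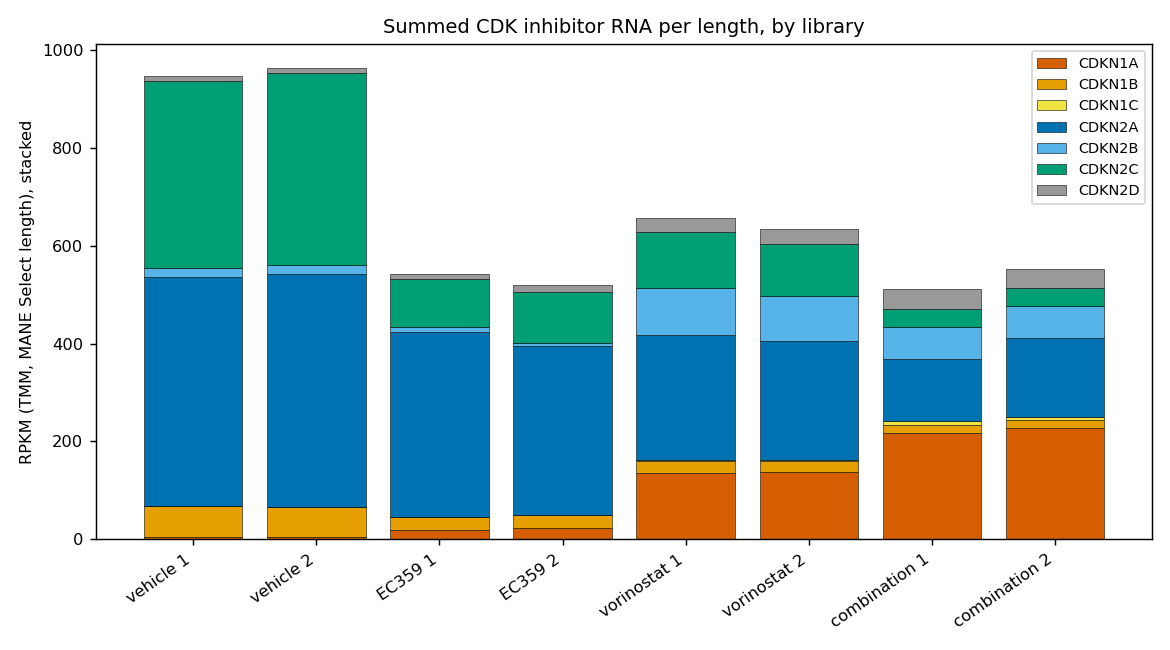
RPKM (TMM-scaled, per length of the reference transcript) of the 7 CDK inhibitor genes, stacked for each of the 8 libraries. The stacks sum to 956 RPKM in vehicle and 533 RPKM in the combination on average, and CDKN1A takes 0.360% of the former and 41.7% of the latter.

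The partners that these inhibitors act on were read from lists of genes. Among 11 tested genes for CDKs and cyclins, EC359 alone raised 1, vorinostat lowered 4 and the combination lowered 8 in edgeR, and DESeq2 gave the same counts. Of all genes, 1.94% were higher with EC359, 13.3% lower with vorinostat and 15.3% lower with the combination. In either direction the shares called were 3.67%, 30.1% and 34.8%. CCND1, the cyclin D1 gene, rose with EC359 (log2 1.03, standard error 0.09, adjusted p = 1.1e-04 in edgeR) and fell with vorinostat (-2.02, standard error 0.10, adjusted p = 4.8e-07 in edgeR). The INK4 targets CDK6 (log2 -1.70, adjusted p = 3.0e-06 in edgeR) and CDK4 (-1.16, adjusted p = 0.0013 in edgeR) fell with vorinostat as well. Added to vorinostat, EC359 lowered 2 of the 11, where 0.876% of all genes were lower and 4.25% were called in either direction. These 2 were the mitotic cyclins CCNB1 (-1.01, adjusted p = 0.0019 in edgeR) and CCNB2 (-1.14, adjusted p = 1.6e-04 in edgeR). CCND1 was at 0.91 (adjusted p = 2.6e-04 in edgeR), short of the fold threshold.

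Of 13 tested genes for RB and E2F proteins, 0 were called with EC359 alone (6 had an unadjusted p under 0.05) or with EC359 on top of vorinostat (9 had one) in edgeR, and 0 with DESeq2. Vorinostat lowered 5, E2F3 (log2 -1.58), E2F8 (-1.57), E2F5 (-1.50), TFDP1 (-1.38) and E2F7 (-1.25), and the combination lowered 4, E2F3, E2F8, TFDP1 and RBL2 (-1.08). Of all genes, 13.3% were lower with vorinostat and 15.3% with the combination (30.1% and 34.8% were called in either direction). With EC359 alone 3.67% of all genes were called, and 4.25% with EC359 on top of vorinostat. RB1 was at most 39.1 CPM in the group means, in vehicle, and was called in no comparison. Of 12 tested genes for the turnover of CIP/KIP proteins, 0 were called with EC359 by edgeR or DESeq2 (2 had an unadjusted p under 0.05 in edgeR). With vorinostat 2 rose and 2 fell, near the shares of all genes (16.8% higher and 13.3% lower). With the combination 5 fell, where 15.3% of all genes were lower. CUL1, the scaffold of the SCF ubiquitin ligase, fell with vorinostat (-2.12, standard error 0.10, adjusted p = 3.7e-07 in edgeR) and with the combination (-2.93, standard error 0.10, adjusted p = 6.3e-08 in edgeR). SKP2, the SCF subunit that recognises p27, fell as well (-1.30 and -1.38). The 2 that rose with vorinostat were SKP1, from 150 CPM in vehicle to 305 CPM in group means, and RNF123, from 28.6 to 64.8 CPM. DTL, a substrate receptor for p21, rose when EC359 was added to vorinostat (1.00, standard error 0.09, adjusted p = 1.3e-04 in edgeR) and had a called interaction (0.85, adjusted p = 0.0066 in edgeR). DESeq2 called the interaction of DTL and not this rise. The interaction was not called in a fit with a block for the replicate number.

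**Figure D5:**
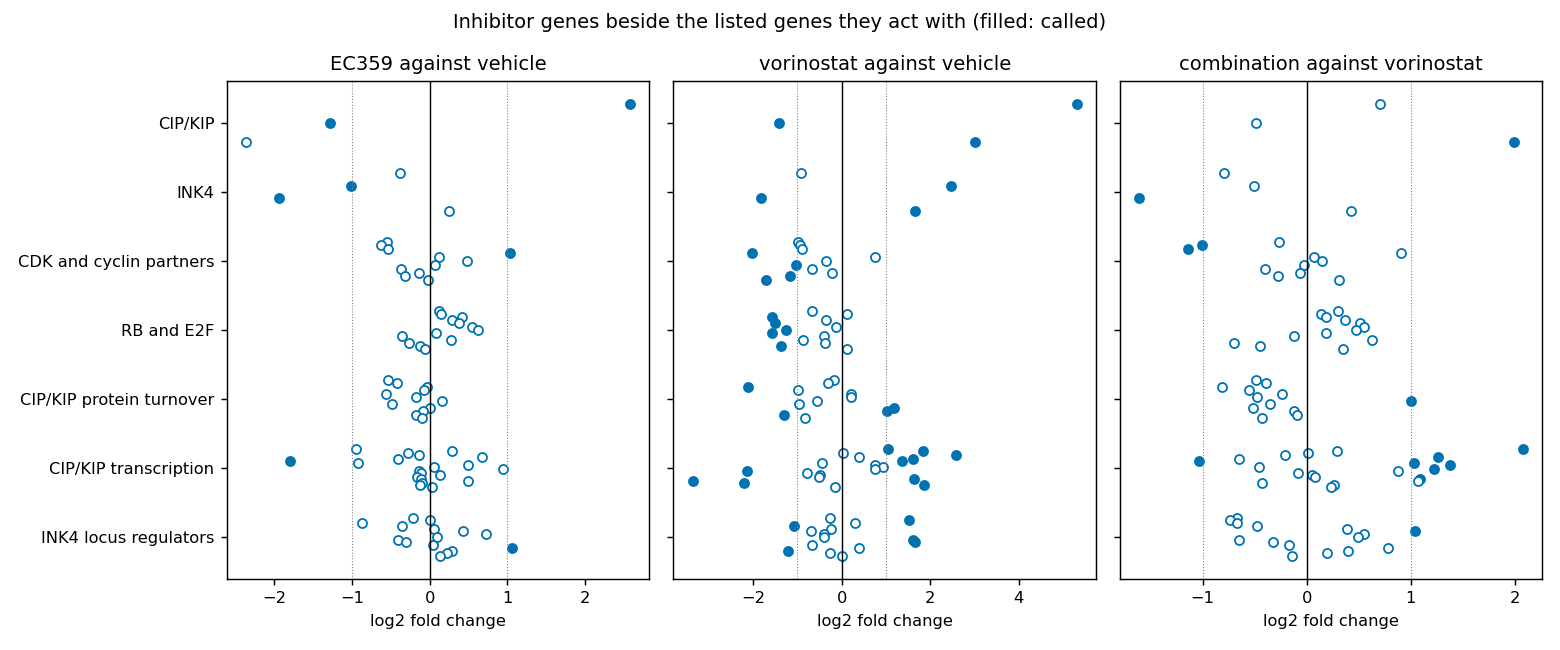
Log2 fold change (horizontal axis, a scale for each panel) of the inhibitor genes and of 5 lists of genes that they act with, in 3 comparisons. Each point is a gene, filled where it was called, and dotted lines mark 1 and -1. The filled point of CDKN1C for vorinostat against vehicle is a description and not a test. With EC359 alone 1 of 11 CDK and cyclin genes and 0 of 13 RB and E2F genes were called. Of the 6 inhibitor genes other than CDKN1C 4 were called, and of all genes 3.67%.

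Among 20 tested genes for factors known to act on CIP/KIP transcription, 1 fell with EC359, 7 rose and 3 fell with vorinostat, and 8 rose and 3 fell with the combination. Over all genes 3.67%, 30.1% and 34.8% were called, and the count with EC359 is near that share. TFAP4, a repressor of CDKN1A, fell with vorinostat (-3.37, standard error 0.35, adjusted p = 3.4e-05 in edgeR). FOXO4 rose (2.59, standard error 0.19, adjusted p = 3.6e-06 in edgeR) and so did FOXO1 (1.83, standard error 0.17, adjusted p = 1.6e-05 in edgeR), factors that can raise CDKN1B. TP63 rose (1.86) and SMAD3, which carries TGF-beta signals to CDKN1A and CDKN2B, fell (-2.13). Added to vorinostat, EC359 raised 6 and lowered 1 of the 20, where 3.37% of all genes were higher and 0.876% lower. EGR1 rose (2.08, standard error 0.18, adjusted p = 8.1e-05 in edgeR), as did KLF6 (1.38), HES1 (1.26), MYC (1.22) and KLF4 (1.03), and ID2 fell (-1.03). The interaction was called above 0 for EGR1 (3.02), KLF4 (1.95) and KLF6 (0.87), among others.

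Of 15 tested genes for factors acting on the INK4 locus, KDM6B, an H3K27 demethylase, was called with EC359 (log2 1.06, standard error 0.18, adjusted p = 0.0042 in edgeR). With vorinostat 3 rose and 2 fell. These counts are near the shares of all genes called, 3.67% with EC359 and 30.1% with vorinostat. ID1 (1.62), a repressor of CDKN2A, JUNB (1.65) and the Polycomb gene CBX7 (1.53) were higher, and the Polycomb gene PCGF2 (-1.22) and CDKN2B-AS1 were lower, the last not with DESeq2. BMI1 had a mean of 0.588 to 1.13 CPM in the 4 groups. Only 6 of 10 listed genes around the imprinted CDKN1C were expressed enough to be tested. In these 6, 1 rose with EC359, 1 rose and 1 fell with vorinostat, and 1 rose with the combination. Of all genes 3.67%, 30.1% and 34.8% were called, and the count with vorinostat is near that share. The gene that fell was TSSC4 (log2 -1.08, standard error 0.29, adjusted p = 0.0086 in edgeR). PHLDA2, a maternally expressed gene like CDKN1C, rose with EC359 (log2 2.44, standard error 0.32, adjusted p = 9.5e-04 in edgeR), with vorinostat (3.36, standard error 0.30, adjusted p = 1.3e-05 in edgeR), and when EC359 was added to vorinostat (1.45, standard error 0.22, adjusted p = 0.0017 in edgeR). KCNQ1OT1, the noncoding RNA of the domain, was called neither with EC359 nor with vorinostat. Of 5 other genes named for CDK inhibition, 0 were called with either drug alone by edgeR or DESeq2. In edgeR 1 had an unadjusted p under 0.05 with EC359 and 5 with vorinostat. With the combination CDKN2AIP rose (1.57) and CDK2AP1 fell (-1.79), a count near the 34.8% of all genes called.

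For each inhibitor gene the 3 tested genes with the most like pattern were found by the root mean square difference of their log2 CPM relative to vehicle over the 8 libraries, a description in which the libraries are shared. The closest were those of CDKN2A (SEPT8 at 0.09, SLC2A4RG and DAB2IP at 0.11), CDKN2D (EXOC8 at 0.10, MAFK and DAGLB at 0.12), CDKN2B (HPSE at 0.13, SLC30A3 at 0.14 and SEMA6C at 0.17) and CDKN1B (LOC100130275 at 0.13, PRRT2 at 0.15 and FADS2 at 0.18). CDKN2C was followed less closely by PARP9 (0.28), PTGIS (0.30) and TNS3 (0.32). The nearest to CDKN1A were OASL (0.56), NR4A2 (0.61) and SNAI3 (0.72), and to CDKN1C DENND2C (0.69), TNFAIP6 (0.72) and RPLP0P2 (0.73). No gene with an average log2 CPM of at least 1 came nearer to the profile of CDKN1A than OASL, whose mean was 0.118 CPM in vehicle and 18.8 CPM in the combination.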

How the data were processed

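BT-549 RNA was sequenced as 50 bp single-end reads. The authors aligned them to hg19 with TopHat2 (2.0.8b in the submitters' processing notes) and counted reads per RefSeq gene with HTSeq. The deposited lists, 1 for each library, hold raw counts by gene symbol and were not normalized. The HTSeq version and the strand setting are not given in the sources used here. The 5 HTSeq summary lines were left out, among them unassigned reads (11.0% to 14.2% of unique alignments) and ambiguous reads (0.649% to 0.850%).

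Groups followed the sample labels. Counts were filtered with filterByExpr, scaled by TMM and fitted by edgeR 4.0.16 in R 4.3.3 with 1 mean per group over the 8 libraries. Each comparison was tested by edgeR's quasi-likelihood test, adjusted by Benjamini-Hochberg over 13694 genes and called below 0.01 where the log2 fold change was beyond 1 or -1 (for the interaction, by adjusted p alone). Standard errors were taken as the size of the log2 fold change over the square root of F. RPKM used GENCODE v44 transcripts on GRCh37, and promoters came from RefSeq. As alternatives, scaling by RLE or total counts, DESeq2 1.42.0, other filters and thresholds, fits on 4 libraries, a block for the replicate number, and the omission of each library were tried. In a simulation of vorinostat against vehicle with 13346 genes, 94% of 100 genes changed 4-fold and 98% of 100 changed 8-fold were recovered.

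The members and lists were chosen with earlier results of these data known. Named genes are the 7 inhibitor genes, up to 6 called genes of a list per comparison or regulators of a member, locus neighbours, and the 3 genes of most like pattern. Some genes of the lists are counted but not reported here by name.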

Additional observations from a re-analysis of the deposited data

Results flagged for a closer look

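The effect of EC359 on CDKN1A and on CDKN1B differed with and without vorinostat by the interaction test. For CDKN1A the interaction was -1.88 on the log2 scale, and for CDKN1B it was 0.78, both in edgeR's quasi-likelihood test with adjusted p-values of 1.8e-04 and 0.0087. EC359 raised CDKN1A in all 4 libraries that received it, relative to the libraries with the same vorinostat treatment, and CDKN1B was lower in all 4. The call of CDKN1A held in all 14 alternatives (-1.98 to -1.78), and that of CDKN1B in 4 of 14.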

How the results depend on the processing

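Of the log2 fold changes and interactions of single inhibitor genes, none changed direction under any alternative, 26 values lost and 4 gained a call, and 592 did neither. Counts of inhibitor genes called were within 1.5 times in 85 cases and moved further in 15, and 4 of 7 linear sums moved with total counts. These tallies, and the counts of inhibitor genes that follow, cover all 7 genes, including the tests of CDKN1C that are not given above. With EC359 added to vorinostat, 2 genes were called, and 1 with a replicate block (CDKN1C lost), 5 without a fold threshold, and 1 to 2 when a library was left out. With the interaction, 2 were called, and 1 with RLE size factors, total gene counts, no filter on low counts or the replicate block, and 1 to 3 when a library was left out. With a library left out, its group holds a single library, assumed to vary like the others. The labels do not say whether libraries of the same number, 1 or 2, belong together across groups. The correlations of deviations between groups ranged from -0.173 (EC359 and combination) to 0.231 (vehicle and EC359). With 1 difference per group, these correlations cannot decide it. The replicate block gave 189 genes with an interaction over all genes, against 288, without that of DTL, and DESeq2 gave 713. The cause was not tested. CDKN1C could not be tested with EC359 on the 4 libraries of that comparison. With 2 libraries a group and few counts of CDKN1C without vorinostat, depth limits its folds.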
